A study of Mus musculus with 16 samples.

Results

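The mRNAs for the scaffold of the sarcomere and its anchors at the fibre membrane were measured in quadriceps femoris muscle. A set of 47 genes was listed by structure, with titin and the M-band proteins, the Z-disc proteins, the thin filament with its caps, the dystrophin complex and the integrin and vinculin sites. Of these, 41 had at least 1 probe among the 16593 genes of the array, and they were read by 73 of its 25697 probes. Neb, Flnc, Xirp2, Lmod3, Smpx and Klhl41 were not analysed here because no probe carried their symbols. The muscles came from 8 ATF4 mKO mice and 8 control mice, all male and 22 months old, with 1 bead array per mouse. ATF4 mKO mice carried floxed Atf4 alleles (ATF4(L/L)) and an MCK-Cre transgene, whose creatine kinase promoter works in fibres of skeletal muscle and in the heart, so that other cells of the muscle keep Atf4. Control mice were littermates with the same floxed alleles and no Cre. Both groups were thus floxed at Atf4 and differed in the Cre transgene as well as in ATF4, and no group with Cre and an intact Atf4 gene was analysed here.

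Z-discs are the borders of the sarcomere, where actin filaments of neighbouring sarcomeres are crosslinked by alpha-actinin and where titin begins. Titin runs from there to the M-band at the centre of the thick filaments, and desmin ties Z-discs of adjacent myofibrils together. Costameres couple the outermost Z-discs through the membrane to laminin, along one route by dystrophin and dystroglycan and along another by vinculin, talin and integrins. Several proteins of the Z-disc and of the elastic part of titin also change in amount with stretch and load. ATF4 is a transcription factor of the integrated stress response and is best known for genes of amino acid uptake and synthesis.

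None of the 73 probes differed between ATF4 mKO and control mice at an adjusted p of 0.1 (limma), against 35 of all 25697 probes, a background of 0.136%. The smallest adjusted p was 0.734, for the integrin subunit gene Itga7. At an unadjusted limma p of 0.05, 2 of the 73 were counted, Itga7 lower and 1 probe of Dag1 higher, where 5.62% of all probes were counted. The methods' t-test at an unadjusted p of 0.025 also counted 2 of the 73, with 2.85% of all probes. Signals of the 8 ATF4 mKO and the 8 control mice overlapped for each of the 73 probes, and over all probes 0.101% did not overlap. The counts of members were therefore near or below the shares over all probes.

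Signals are given on the log2 scale of the deposited table, in which 1 unit is a change by a factor of 2 and every array has a floor near 8.3. Each gene is described by its brightest probe, and every difference is ATF4 mKO minus control. By this measure the 41 members had a median difference of -0.00765, and 25 of them (61.0%) lay below 0. Over all 16593 genes the median difference was 0.000467, with 48.6% below 0. The differences of the members ran from -0.19 for Xirp1 to 0.25 for Csrp3. The 95% interval of the difference lay within 0.2 on either side of 0 for 30 of the 41, and within 0.1 for 14. Over all 16593 genes these counts were 15920 and 13277. Of the 36 members with a mean signal of 8.5 or above, where the floor narrows the interval less, they were 25 and 9. Of all 6380 genes at 8.5 or above they were 5709 and 3094, so the members were bounded less tightly than genes at large. Myom2, at the edge of the floor, is among the 36 members. For the 11 members not within 0.2, the interval reached beyond 0.2 in at least 1 direction. Such a difference could not be told from none with this number of mice.

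**Figure D1:**
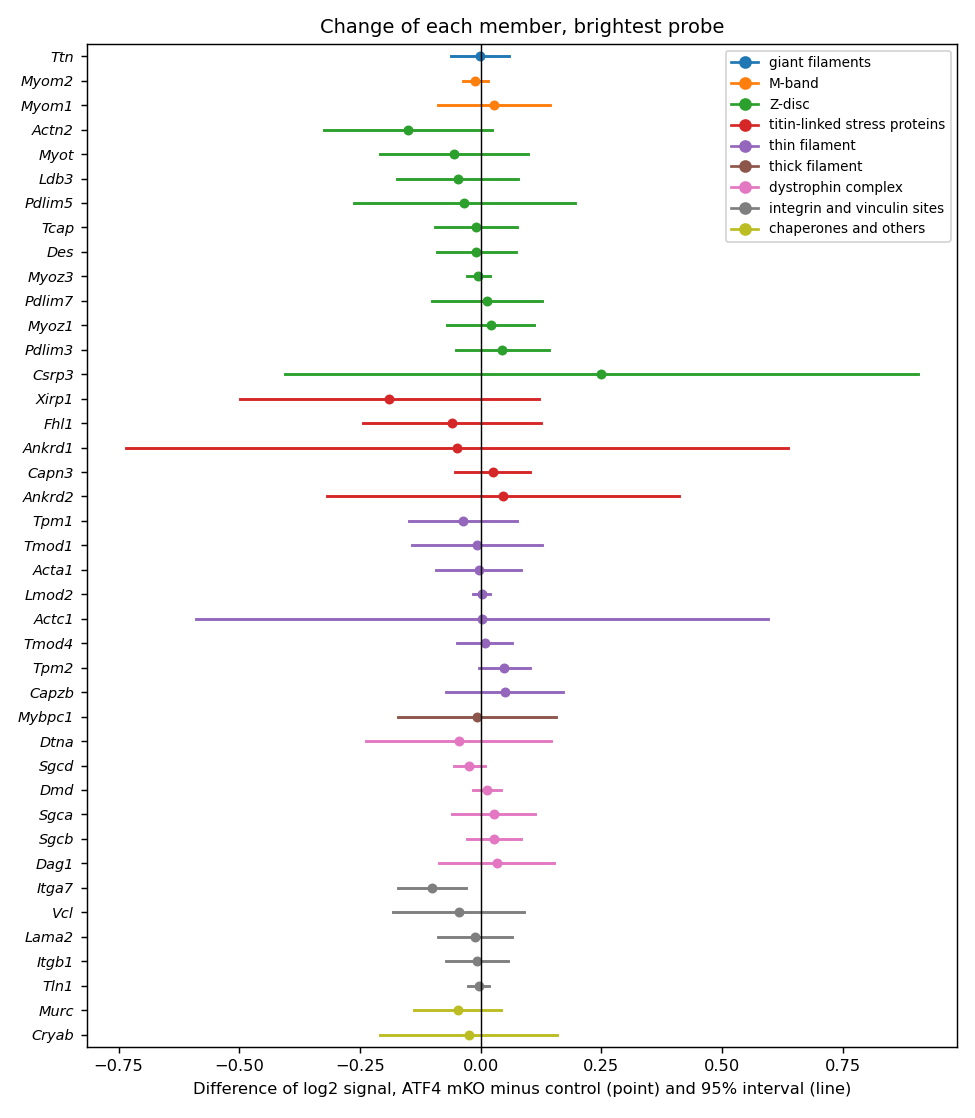
Difference of log2 signal (ATF4 mKO minus control, point) with its 95% interval (line) for the brightest probe of each of the 41 members, coloured by structural class. The interval of Itga7 alone lies wholly on one side of 0, and the widest intervals belong to Ankrd1, Csrp3 and Actc1.

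The Atf4 signal was 8.52 ± 0.05 in ATF4 mKO mice and 10.45 ± 0.12 in control mice (SD, n = 8 each), a difference of -1.93 ± 0.04 (S.E.) with no overlap. The place of the Atf4 probe relative to the floxed part was not checked. The 16 arrays correlated between 0.994 and 0.998, with medians between 8.378 and 8.381. The groups overlapped on the first 2 principal components. On the first, ATF4 mKO mice 5 and 8 (6.94 and 7.22) lay farther out than control mouse 7 (5.82), and on the second ATF4 mKO mouse 1 (-6.25) and control mouse 3 (8.89) lay at the ends. Fast fibre genes marked every sample as fast limb muscle, with a mean signal over 10 measured genes of 14.72 to 14.85 in ATF4 mKO mice and 14.70 to 14.85 in control mice. Of the 5 measured cardiac markers, 4 lay below 8.5, as did all 3 satellite cell markers. Labels name separate mice. In whole muscle, fewer cells of a type and less mRNA per cell cannot be told apart.

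Promoter sequence was compared because the deleted factor binds DNA. RefSeq promoters (GRCm38.p6) were matched for 36 of the 47 listed genes, with 44 windows of the 250 bases before a transcription start. The ATF4 element TGATGNAA, searched on both strands, was found in 2 of the 44 windows (4.55%), those of Capn3 and Pdlim3, and in 3.45% of all 32851 windows. Both windows are shown because they hold the letters of the site that ATF4 binds with its partners, and the capitals mark the match. The Capn3 window (chr2:120476659-120476908, plus strand) holds it on the opposite strand.
Capn3: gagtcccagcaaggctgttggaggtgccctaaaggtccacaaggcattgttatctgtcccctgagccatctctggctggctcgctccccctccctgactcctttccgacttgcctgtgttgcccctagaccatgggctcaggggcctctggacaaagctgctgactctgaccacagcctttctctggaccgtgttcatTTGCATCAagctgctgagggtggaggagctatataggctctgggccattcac
Pdlim3: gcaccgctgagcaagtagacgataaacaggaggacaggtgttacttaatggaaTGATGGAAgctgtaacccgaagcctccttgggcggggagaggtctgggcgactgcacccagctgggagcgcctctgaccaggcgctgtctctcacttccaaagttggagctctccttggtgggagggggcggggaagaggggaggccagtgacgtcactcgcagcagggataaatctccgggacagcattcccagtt
The Pdlim3 window lies at chr8:45885237-45885486, plus strand. Calpain-3, the product of Capn3, is a muscle protease held by titin, and Pdlim3 encodes a PDZ and LIM domain protein that binds alpha-actinin. The Capn3 signal was 9.54 ± 0.08 in ATF4 mKO mice and 9.51 ± 0.07 in control mice, a difference of 0.02 ± 0.04 (S.E.). For Pdlim3 the values were 14.35 ± 0.10 in ATF4 mKO mice and 14.30 ± 0.09 in control mice, a difference of 0.05 ± 0.05. Groups overlapped for both, and neither passed the test (limma, adjusted p = 0.978 for Capn3 and 0.953 for Pdlim3). A second, dimmer probe gave a difference of 0.05 for Capn3 and of -0.03 for Pdlim3. Over the 16 mice after removal of genotype means, the probes correlated at 0.0209 for Capn3 and at 0.698 for Pdlim3.

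Other short motifs of muscle promoters were counted in the same windows, on both strands, as a description. The CArG box, the site of serum response factor, was found in 9 of the 44 windows (20.5%), which belong to Acta1, Actc1, Dmd, Fhl1, Lama2, Ldb3, Myom1 and Vcl, and in 1.47% of all windows. The MEF2 site was found in 5 member windows (11.4%) and in 2.92% of all. The MCAT element CATTCC was found in 9 member windows (20.5%) and in 12.6% of all. The E-box CANNTG was found in 31 member windows (70.5%) and in 66.2% of all. No searched motif contains another, but matches of different motifs may overlap. The sarcomeric actin genes are shown with the CArG box in capitals, since Acta1 was steady between mice and Actc1 was not, and Ankrd1 with its pair of MCAT matches, both on the opposite strand, in capitals as the member of widest spread. These windows lie at chr8:123894776-123895025, minus strand for Acta1, at chr2:114052876-114053125, minus strand for Actc1 and at chr19:36119845-36120094, minus strand for Ankrd1.
Acta1: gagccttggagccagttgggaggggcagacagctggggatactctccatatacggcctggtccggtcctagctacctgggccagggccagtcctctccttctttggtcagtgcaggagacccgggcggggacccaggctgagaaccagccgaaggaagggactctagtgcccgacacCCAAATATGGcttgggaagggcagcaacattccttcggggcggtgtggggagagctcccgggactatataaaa
Actc1: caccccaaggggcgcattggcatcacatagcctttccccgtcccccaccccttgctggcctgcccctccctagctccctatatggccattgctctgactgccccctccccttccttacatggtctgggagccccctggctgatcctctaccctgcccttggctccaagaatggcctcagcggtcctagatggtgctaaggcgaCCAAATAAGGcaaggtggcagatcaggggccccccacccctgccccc
Ankrd1: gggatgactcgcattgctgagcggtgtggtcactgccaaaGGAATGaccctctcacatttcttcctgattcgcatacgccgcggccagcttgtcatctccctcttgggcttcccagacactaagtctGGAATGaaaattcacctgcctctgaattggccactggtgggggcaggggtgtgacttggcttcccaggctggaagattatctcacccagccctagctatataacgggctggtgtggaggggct

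Titin and the M-band were close to equal in both groups. Ttn, the spring and template of the sarcomere, had signals of 14.68 to 14.84 (median 14.77) in ATF4 mKO mice and 14.67 to 14.86 (median 14.77) in control mice. The groups overlapped over nearly their whole range, the difference was -0.0016 ± 0.03 (S.E.), and its 95% interval ran from -0.06 to 0.06. The span of Ttn over all 16 mice was 1.14-fold. Myomesin-1 (Myom1), which crosslinks titin and myosin at the M-band, had 14.01 ± 0.12 in ATF4 mKO mice and 13.98 ± 0.11 in control mice (SD, n = 8 each). A second probe of Myom1 gave a difference of -0.0011, against 0.03 for the brightest. Myomesin-2 (Myom2) lay at the edge of the floor, with 8.497 ± 0.013 in ATF4 mKO mice and 8.508 ± 0.032 in control mice, so a change in it could be compressed by the floor.

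Of the 11 measured Z-disc genes, 7 had a difference below 0 and 4 above, with none called and a median of -0.00914. Actn2, which encodes the alpha-actinin that crosslinks actin at the Z-disc, had 13.60 to 14.18 (median 14.01) in ATF4 mKO mice and 13.91 to 14.33 (median 14.11) in control mice. ATF4 mKO mice 1 and 5 were the lowest, at 13.75 and 13.60, and the other ATF4 mKO mice lay within the control range. The difference in Actn2 was -0.15 ± 0.08 (S.E.), with an unadjusted p of 0.0851 and an adjusted p of 0.894 (limma). Tcap, the cap of the titin ends, had 14.75 ± 0.09 in ATF4 mKO mice and 14.76 ± 0.08 in control mice. Des, the intermediate filament gene desmin, had 13.95 ± 0.10 in ATF4 mKO mice and 13.96 ± 0.05 in control mice. For both genes the difference was -0.01 with a standard error of 0.04, smaller than the spread between mice. Myoz1 and Pdlim7, for a calcineurin-binding and an actin-associated protein of the Z-disc, had differences of 0.02 and 0.01. Ldb3, Myot and Pdlim5, for proteins that bind alpha-actinin or filamin there, had differences of -0.05, -0.05 and -0.03. Myoz3 lay near the floor, at 8.42 in both groups, and no change could be read there.

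Csrp3, the muscle LIM protein gene that is raised by stretch and denervation, had the largest difference among the members and one of the widest spreads. Its signal was 10.39 to 12.67 (median 11.21) in ATF4 mKO mice and 10.27 to 11.65 (median 10.65) in control mice. Most of the gap between means came with ATF4 mKO mouse 7 at 12.67, where the next ATF4 mKO mouse was at 11.34, inside the control range. The Csrp3 difference was 0.25 ± 0.31 (S.E.), with a 95% interval of -0.41 to 0.91 and an adjusted p of 0.967 (limma). Leaving out ATF4 mKO mouse 7 gave the smallest difference of all alternatives, 0.04, and leaving out control mice 3 and 7 together gave the largest, 0.49. The 3 probes of Csrp3 gave 0.25, 0.21 and 0.13, and they agreed on the order of mice, with correlations of 0.981 to 0.989 between probes over the 16 mice after removal of genotype means.

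Proteins that sit on the elastic part of titin or respond to strain, 5 measured genes, held the widest spread of any class with more than 1 gene (median SD within genotype 0.31, against 0.0953 over all members). Ankrd1, the cardiac ankyrin repeat protein gene that is induced by injury and load, had 9.50 to 11.65 (median 10.40) in ATF4 mKO mice and 9.64 to 11.21 (median 10.39) in control mice. Medians of the groups nearly coincided, while single mice within a group differed widely. Control mice fell into separate clusters, with mice 1, 2, 5 and 6 between 10.89 and 11.21 and mice 3, 4, 7 and 8 between 9.64 and 9.88. The difference in Ankrd1 was -0.05 ± 0.32 (S.E.), with a 95% interval of -0.73 to 0.64. Ankrd2, its relative in slow and stretched fibres, had 10.89 to 12.21 (median 11.25) in ATF4 mKO mice and 10.98 to 11.85 (median 11.24) in control mice. Again ATF4 mKO mouse 7 was highest, and the difference of 0.05 ± 0.17 was smaller than the SD of either group (0.41 in ATF4 mKO mice and 0.31 in control mice).

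Xirp1, which encodes an actin-binding protein of sites of fibre repair and cell junctions, had the most negative difference of the members. Its signal was 9.86 to 10.57 (median 10.15) in ATF4 mKO mice and 9.88 to 10.91 (median 10.39) in control mice. Control mice 5 and 6, at 10.91 and 10.74, lay above every ATF4 mKO mouse, and the rest overlapped. The Xirp1 difference was -0.19 ± 0.15 (S.E.), with an unadjusted p of 0.213 and an adjusted p of 0.927 (limma). Fhl1, a LIM domain protein gene whose product binds titin and helps set muscle mass, had 14.09 ± 0.19 in ATF4 mKO mice and 14.15 ± 0.18 in control mice (SD, n = 8 each). A second probe of Fhl1 gave a difference of 0.0034, against -0.06 for the brightest.

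**Figure D2:**
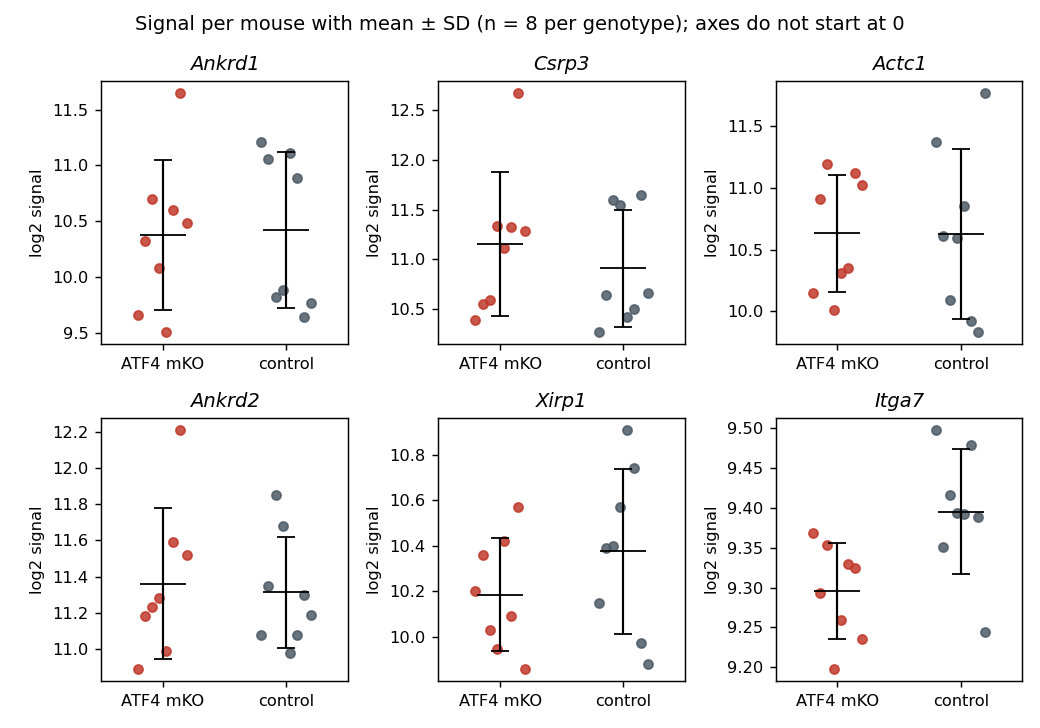
Log2 signal in each mouse (points) with mean ± SD (bars) for the 5 members of largest spread and for Itga7, ATF4 mKO to the left of control (n = 8 each, axes cut). ATF4 mKO mouse 7 tops Csrp3 (12.67), Ankrd1 (11.65) and Ankrd2 (12.21), control mice fall apart on Ankrd1, and all ATF4 mKO mice lie below the control mean for Itga7 (9.40).

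Among 8 measured thin filament genes, 3 differences lay below 0 and 5 above. Acta1, the adult skeletal actin gene, had 14.97 to 15.24 (median 15.11) in ATF4 mKO mice and 14.96 to 15.18 (median 15.12) in control mice. Actc1, the cardiac actin gene that skeletal muscle expresses in development and regeneration, had 10.01 to 11.19 (median 10.63) in ATF4 mKO mice and 9.83 to 11.77 (median 10.60) in control mice. The actins thus had means equal within error in both groups, with differences of -0.0038 ± 0.04 (S.E.) for Acta1 and 0.0032 ± 0.28 for Actc1. They differed in spread, with 1.22-fold between the lowest and highest of the 16 mice for Acta1 and 3.84-fold for Actc1. Control mice 1 and 8, at 11.37 and 11.77, were the highest on Actc1 and control mouse 7 was the lowest, at 9.83. Of the 5 measured cardiac markers, Nppa, Nppb, Myl7 and Tnni3 lay below 8.5 and Myh6 did not.

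Tpm2, the beta-tropomyosin gene, had 14.78 to 14.94 (median 14.85) in ATF4 mKO mice and 14.73 to 14.86 (median 14.81) in control mice, a difference of 0.05 ± 0.02 (S.E.) with an unadjusted p of 0.0673 and an adjusted p of 0.894 (limma). Its other probes gave -0.04 and -0.04, and the 3 probes did not order the mice alike, with correlations of -0.477, -0.387 and 0.133. Capzb, for the beta subunit of the capping protein that holds the barbed end of actin in the Z-disc, had differences of 0.05, 0.02 and 0.02 from 3 probes. Tropomodulin genes Tmod1 and Tmod4, for caps of the pointed end, had differences of -0.0076 and 0.0080, and the probes of Tmod4 differed in sign. Tpm1 had a difference of -0.04 ± 0.05. Lmod2, a leiomodin gene of mainly cardiac use, was near the floor at 8.35 in both groups. Mybpc1, the slow myosin-binding protein C gene and the one thick filament gene of the set, had 12.76 ± 0.17 in ATF4 mKO mice and 12.77 ± 0.16 in control mice. Other probes of Mybpc1 gave differences of -0.11 ± 0.07 (S.E., unadjusted limma p of 0.15) and -0.04, against -0.0081 for the brightest.

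Along the dystrophin route, 4 of 6 differences lay above 0 and none was called. Dag1, which encodes the laminin receptor dystroglycan, had a pair of probes with unequal results. By the dimmer one, Dag1 had 9.32 to 9.64 (median 9.47) in ATF4 mKO mice and 9.28 to 9.46 (median 9.33) in control mice. Groups overlapped, and the difference of 0.12 ± 0.04 (S.E.) had an unadjusted p of 0.0132 and an adjusted p of 0.791 (limma). By the brighter one the difference was 0.03 ± 0.06, with an unadjusted p of 0.561. The probes correlated at 0.552 over the 16 mice after removal of genotype means.

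Sarcoglycans, the membrane partners of dystroglycan, stayed within small differences. Sgca had 11.84 ± 0.05 in ATF4 mKO mice and 11.82 ± 0.11 in control mice, and its 3 probes gave 0.03, 0.02 and -0.07. Sgcb had 10.95 ± 0.04 in ATF4 mKO mice and 10.93 ± 0.07 in control mice, with 0.03 and -0.03 from its probes. Sgcd lay at the edge of the floor, with 8.46 to 8.54 in ATF4 mKO mice and 8.45 to 8.56 in control mice. Dmd, the dystrophin gene, was near the floor on both of its probes, with 8.34 ± 0.03 in ATF4 mKO mice and 8.33 ± 0.02 in control mice on the brighter one, so that its level was not resolved. Dtna, for the dystrophin relative alpha-dystrobrevin, had 10.97 ± 0.18 in ATF4 mKO mice and 11.02 ± 0.20 in control mice, with ATF4 mKO mouse 6 at 11.35 and control mouse 3 at 11.47 above the rest.

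All 5 measured genes of the integrin and vinculin sites had a difference below 0, from -0.10 for Itga7 to -0.0042 for Tln1, with a median of -0.0115. Apart from Itga7 and Vcl, these differences were small enough to turn sign under alternatives, in 5 of 25 for Itgb1, 2 for Tln1 and 1 for Lama2. Itga7 encodes the integrin alpha-7 subunit, the main laminin-binding integrin of adult fibres. Its signal was 9.20 to 9.37 (median 9.31) in ATF4 mKO mice and 9.24 to 9.50 (median 9.39) in control mice. All 8 ATF4 mKO mice lay below the control mean of 9.40, but control mouse 8, at 9.24, lay within the ATF4 mKO range. As Itga7 had the smallest p of the members, that pattern is no separate support for a change. The Itga7 difference was -0.10 ± 0.03 (S.E.), a ratio of 0.933, with a 95% interval of -0.17 to -0.03, an unadjusted p of 0.00812 and an adjusted p of 0.734 (limma). Over the alternatives its unadjusted p ran from 0.000562 to 0.0224 and its smallest adjusted p was 0.295, so it was called under none of them. The partner subunit gene Itgb1 had a difference of -0.0079 ± 0.03 on its brightest probe and of 0.02 ± 0.02 on a second one near the floor. Vcl, for vinculin, which links talin to actin, had 10.82 ± 0.14 in ATF4 mKO mice and 10.86 ± 0.13 in control mice. Lama2, the laminin chain gene that both routes reach, had a difference of -0.01 ± 0.04, and Tln1, for talin-1, was near the floor.

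Murc, listed in newer annotation as Cavin4 and needed for caveolae of muscle, had 11.66 ± 0.09 in ATF4 mKO mice and 11.71 ± 0.09 in control mice (SD, n = 8 each). Cryab, the small heat shock protein gene whose product protects desmin and titin, had 12.94 to 13.71 (median 13.38) in ATF4 mKO mice and 13.24 to 13.57 (median 13.41) in control mice. Differences were -0.05 ± 0.04 (S.E.) for Murc and -0.02 ± 0.09 for Cryab.

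Single mice of one genotype differed more than the group means for several members. An SD within genotype above 0.3 was found for 5 of the 41 members, namely Ankrd1 (0.69), Csrp3 (0.66), Actc1 (0.59), Ankrd2 (0.36) and Xirp1 (0.31), and for 75 of all 16593 genes. Of 6380 genes at 8.5 or above, the same 75 exceeded 0.3, beside 5 of 36 members. Median SDs at 8.5 or above were 0.115 for the members and 0.0719 for all genes. From the lowest to the highest of the 16 mice, signals spanned 5.27-fold for Csrp3, 4.44-fold for Ankrd1, 3.84-fold for Actc1, 2.49-fold for Ankrd2 and 2.07-fold for Xirp1. Separate probes ordered the mice alike for Csrp3, Ankrd1 (r of 0.971 between its probes over the 16 mice) and Actc1 (0.927), but the dimmer probes spread less, with an SD within genotype of 0.41 for Ankrd1 and 0.13 for Actc1.

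**Figure D3:**
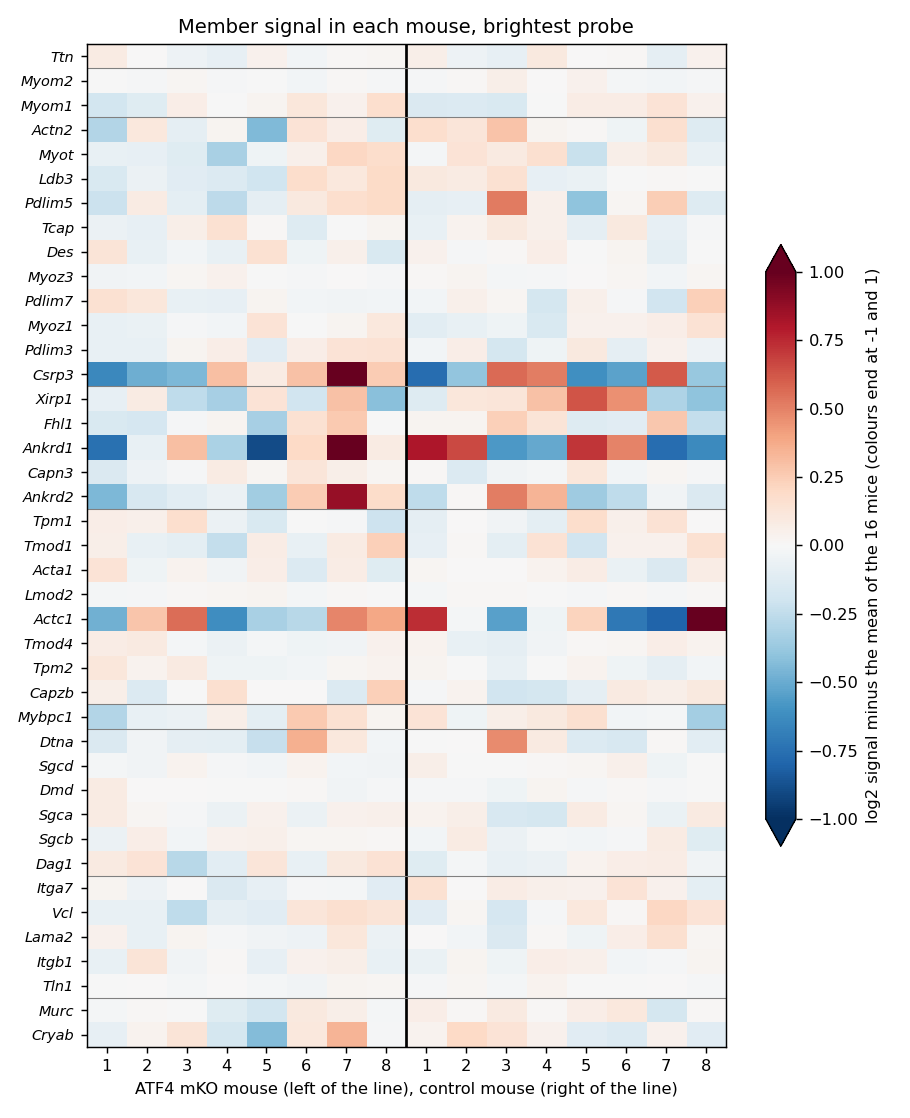
Log2 signal of each member in each mouse minus its mean over the 16 mice (colour, ending at -1 and 1), with ATF4 mKO mice to the left of the line, control mice to the right and grey lines between structural classes. Csrp3, Ankrd1, Actc1, Ankrd2 and Xirp1 stand out by strong colours in both groups, and ATF4 mKO mouse 7 is high on Csrp3, Ankrd1 and Ankrd2.

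Whether the variable genes moved together was examined within each genotype, over the 10 pairs of the 5 genes of largest spread, a comparison chosen after their values were seen. In ATF4 mKO mice, Ankrd1 and Ankrd2 had a Pearson r of 0.921 (exact permutation p = 0.00201, adjusted p = 0.0402 over 20 relations, n = 8). Spearman's rho was 0.786 (exact permutation p = 0.0279, adjusted p = 0.14), and r was 0.709 without mice 1 and 7, the 2 farthest from the median of Ankrd2. In control mice Ankrd1 formed separate clusters of 4, too few for a coefficient within either. The pooled coefficients in control mice are among the 20 and are not given as values. Those with Ankrd1 join these clusters, and were negative for Ankrd2 and for Csrp3. That of Csrp3 with Ankrd2 was positive, but control mice fell apart on Csrp3 as well. There the mice high in Ankrd1 (1, 2, 5 and 6) had Ankrd2 signals of 10.98 to 11.35, and those low in Ankrd1 (3, 4, 7 and 8) had 11.19 to 11.85. Csrp3 signals of the same control mice were 10.27 to 10.64 where Ankrd1 was high, and 11.60, 11.55, 11.65 and 10.66 in mice 3, 4, 7 and 8. A difference between genotypes in these relations was not tested. Of the 10 relations in ATF4 mKO mice, only that of Ankrd1 with Ankrd2 had an adjusted p for r under 0.05. For Csrp3 with Ankrd2 in these mice r was 0.897 (exact permutation p = 0.00846, adjusted p = 0.0846). It was 0.478 without mice 1 and 7.

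**Figure D4:**
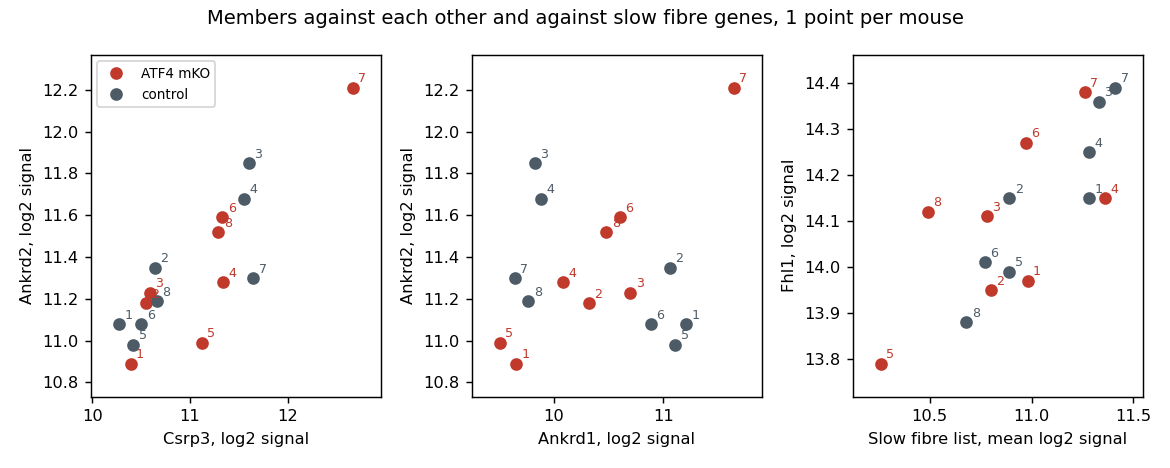
Each point is 1 mouse, numbered, ATF4 mKO in red and control in grey, with log2 signals of Ankrd2 against Csrp3 (left), Ankrd2 against Ankrd1 (middle) and Fhl1 against the mean of 10 slow fibre genes (right). ATF4 mKO mouse 7 lies at the top of the first 2 panels, control mice form separate clusters along Ankrd1, and Fhl1 is higher in the control mice with more slow fibre signal.

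Slow fibre content was compared because Csrp3 and Ankrd2 are known as genes of slow fibres. The mean over 10 slow fibre genes, none of them a member, was 10.26 to 11.36 (median 10.88) in ATF4 mKO mice and 10.68 to 11.41 (median 11.09) in control mice. None of the 10 genes was called, and the groups overlapped. In ATF4 mKO mice the relation of Fhl1 to this mean had r = 0.678 (exact permutation p = 0.0621, adjusted p = 0.331 over 16 relations, n = 8) and rho = 0.619 (exact permutation p = 0.115, adjusted p = 0.456), with r = 0.52 without the 2 farthest mice. In the same mice r was 0.363 for Csrp3 (exact permutation p = 0.381, adjusted p = 0.554) and 0.418 for Ankrd2 (exact permutation p = 0.302, adjusted p = 0.554). None of the 8 relations in ATF4 mKO mice passed. Control mice formed clusters on this mean too, with mice 2, 5, 6 and 8 at 10.68 to 10.89 and mice 1, 3, 4 and 7 at 11.28 to 11.41, and no coefficient is given for them, although the pooled one of Fhl1 would pass. Fhl1 was 13.88 to 14.15 in the cluster with less slow fibre signal and 14.15 to 14.39 in the cluster with more. The part of slow fibre content in the differences between genotypes was not tested.

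The genes most like the 3 members of largest spread were searched over all genes, by correlation over the 16 mice after removal of genotype means. Nearest to Csrp3 were Ankrd2 (0.865), Sdcbp (0.84) and 2810021J22Rik (0.82), the last of these near the floor. Nearest to Actc1 were C2cd5 (0.852), Itgb1bp2 (0.815) and Kazald1 (0.804), of which Itgb1bp2, for the muscle protein melusin that binds integrin beta-1, had a signal above the floor (11.13). Ankrd1 was nearest to Olfr620, Ipcef1 and Skint3, all with mean signals near 8.3 at the floor, where correlations carry little. These coefficients are the highest of many and serve as a description.

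Other genes of the sarcomere and costamere, a list of 68 that are no members, were read beside them. Of 57 with a probe, none was called, and 1 was lower and 2 were higher at an unadjusted limma p of 0.05. Over all 16593 genes by brightest probe, 18 were called lower and 7 higher, and 956 were counted at that unadjusted p. The median difference of the 57 was -0.00322 with 33 (57.9%) below 0, where 48.6% of all genes lay below 0. Dysf, for the membrane repair protein dysferlin, had 9.06 ± 0.12 in ATF4 mKO mice and 8.88 ± 0.06 in control mice (SD, n = 8 each), a difference of 0.18 ± 0.05 (S.E.) with an adjusted p of 0.409. Synm, for the intermediate filament protein synemin that joins desmin to costameres, had 13.17 ± 0.15 in ATF4 mKO mice and 12.95 ± 0.21 in control mice, with an unadjusted p of 0.0232. Pdlim1, for a PDZ and LIM domain protein that binds alpha-actinin, had 11.19 ± 0.19 in ATF4 mKO mice and 11.44 ± 0.21 in control mice, with an unadjusted p of 0.0183. All 8 ATF4 mKO mice lay below the control mean for Pdlim1 and above it for Dysf. These genes were named for the smallest p of the list, so that pattern is no separate support for a change. Actn1, for a non-muscle alpha-actinin, had a difference of -0.06 ± 0.03 with an unadjusted p of 0.0732. None of these had an adjusted p of 0.1 or less.

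Markers of other cells were close in both groups, and 0 of them were called. The mean over 5 fibroblast genes was 9.77 to 9.98 in ATF4 mKO mice and 9.58 to 10.02 in control mice, and that over 5 endothelial genes was 8.89 to 9.10 in ATF4 mKO mice and 8.95 to 9.06 in control mice. Smooth muscle and mural genes averaged 9.06 to 9.23 in ATF4 mKO mice and 9.12 to 9.25 in control mice. These cells also use Vcl, Tln1, Itgb1, Actn1 and Pdlim1, and their part in those values was not tested. Embryonic and regenerating fibre genes, for which 3 of 4 were measured, averaged 8.62 to 8.71 in ATF4 mKO mice and 8.59 to 8.75 in control mice.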

How the data were processed

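Quadriceps RNA of 8 ATF4 mKO and 8 control mice was hybridised by the authors to Illumina Mouse Ref-8 v2.0 arrays and processed in BeadStudio. The values used are the log2 signals that the authors deposited as 1 table. No source used here gives the background correction, the normalization, the software version or the slide of an array. A floor near 8.3 compresses changes of weakly expressed mRNAs, and depth has no meaning for arrays, whose number limits the precision. Groups came from the labels. The probe annotation gave 1 gene to 23978 of 25697 probes and none to 1719. Each probe was fitted in limma 3.58.1 (R 4.3.3, lmFit and eBayes) as ATF4 mKO minus control, two-sided, with p adjusted by Benjamini and Hochberg over 25697 probes and called at 0.1. The methods' t-test was run beside it. Relations between genes used exact permutation tests over 40320 pairings within a genotype (Python 3.11.15, SciPy 1.17.1). The fit was tested on simulated data.

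The members, lists, tests and alternatives were chosen with earlier results of these data known. Named genes were, by brightest probe, the 8 members of smallest p, the 8 of largest SD within genotype, the 5 brightest, all below 8.5, the 2 of smallest p in each structural class, and members whose probes above 8.5 differ in sign. Other members were named by their roles. Alternatives were quantile normalization, median centring, the brighter part of the probes, array weights, a replicate block, each mouse left out, control mice 3 and 7 left out together (no such fit was made for ATF4 mKO mice that lay as far out), the t-test, another variance prior, other thresholds and the mean of a gene's probes.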

Additional observations from a re-analysis of the deposited data

Results flagged for a closer look

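In 82 groups of 8 mice (41 members in each genotype), 6 held a mouse whose gap to its nearest neighbour was large against the range of the group, where chance gives about 4.1, so the number of such mice is near that of chance. Csrp3 was 12.67 in ATF4 mKO mouse 7, with the next mouse at 11.34. Dmd was 8.419 in ATF4 mKO mouse 1, with the next at 8.352, both at the floor of the array. Dtna was 11.47 in control mouse 3, with the next at 11.09. Mybpc1 was 12.42 in control mouse 8, where the next lowest was 12.72. Control mouse 7 was lowest for both Des, at 13.85 with the next at 13.94, and Murc, at 11.51 with the next at 11.69.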

How the results depend on the processing

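No member probe was called in any setting, at adjusted p thresholds of 0.05, 0.1 or 0.25, with each mouse left out, or by the methods' t-test after Benjamini-Hochberg. The count at an unadjusted p of 0.05, which was 2 with all mice, was between 2 and 4 with a mouse left out, at 4 without ATF4 mKO mouse 6 and 4 without ATF4 mKO mouse 7. The median difference of the members lay between -0.0166 and 0.000234 with a mouse left out, against -0.00765 with all mice and an SD over mice of 0.0274. Over 1023 values of single members under alternatives, 90 had the sign turned, in 23 of the 41 members, and 0 were called. Values from the mean of a gene's probes are among these, and they had no test and could not be called. Itga7, Actn2, Xirp1 and Csrp3 kept their signs in each setting that gave them a value. No source used here says that mouse numbers pair the groups. Deviations of same-numbered mice correlated between -0.225 and 0.239, and 2 of 8 pairs exceeded 0.1. Such correlations cannot show whether the numbers name pairs. With the mouse number as a replicate block 0 probes were called and 2 had an unadjusted p of 0.05 or less. Background correction, pseudocounts and slide as a block were not run, since the table holds processed log2 values and no slide. The floor limits Dmd, Lmod2, Myoz3, Sgcd and Tln1, in which a change would be compressed.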
